A study of Homo sapiens with 24 samples.

Results

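Panc1 (PANC-1) cells, an established human pancreatic ductal carcinoma line, received an IRAK1/4 inhibitor at 10 uM for 24 h, a compound labelled as acting against the kinases IRAK1 and IRAK4, and were compared with Panc1 cells given the vehicle DMSO for 24 h. Each group had 2 one-colour Illumina bead arrays, chosen by the source label, so 4 of the 24 arrays of the study enter the comparison. The other 20 arrays cover Capan1, another pancreatic cancer line, with inhibitor or DMSO, and cells of both lines that carried retroviral hairpins: shIRAK1, shIRAK4, both (shIRAK1+4) or a scrambled sequence (scramble). All cells grew in RPMI with fetal bovine serum. Hairpin cells were infected with a pair of viruses and selected with puromycin and geneticin, steps given for none of the inhibitor or DMSO cells. The labels name no compound, give no second dose or time, and leave unsaid whether the replicate arrays stem from separate cultures. The p-values therefore measure only how far these samples lie apart, which may be technical spread. Of 34595 genes on the array, 10469 entered the comparison, those with a detection p below 0.01 throughout the inhibitor group, the DMSO group or both. The detection p sets a signal against the negative controls of its array.

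IRAK4 is recruited through the adaptor MYD88 to activated interleukin-1 and Toll-like receptors and phosphorylates IRAK1, which passes the signal through TRAF6 and the IKK complex to NF-kB. NF-kB then drives genes for chemokines, cytokines and its own inhibitors, and it is often active in pancreatic cancer cells. A separate system, the integrated stress response, reacts to amino acid shortage, misfolded protein and other stress by raising translation of the transcription factor ATF4. ATF4 acts with partners such as CHOP (the product of DDIT3) on genes for amino acid synthesis, amino acid transport and the charging of transfer RNA.

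Levels are log2 units after background correction and quantile normalization, and changes are log2 fold changes, inhibitor minus DMSO, ± SE from limma, called at an adjusted p under 0.05 (Benjamini-Hochberg over the 10469 genes). The 4 arrays detected 10640 to 10868 genes each, and detection began at a level of 5.24 to 5.31. Replicates lay close together: the median SD between the 2 arrays was 0.095 in the inhibitor group and 0.084 in the DMSO group, against up to 0.193 in other groups of the study. The SE comes from all 24 arrays, so it is often wider than the spread of the 4 arrays compared, and precision is limited by their number. Of 12 epithelial markers 8 were detected on all 4 arrays, as were the mesenchymal markers VIM, CDH2 and AXL, whereas ZEB1, FN1, SNAI2 and TWIST1 were detected on none. Duct markers were partly present, with KRT7, KRT19, SOX9 and MUC1 detected and CFTR, CA2 and SPP1 not. None of 7 acinar and none of 7 endothelial markers was detected on any of the 4 arrays, and 8 of 9 immune and 9 of 11 fibroblast and stellate markers were likewise at background.

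The mRNA of the targeted kinases was examined first. IRAK1 lay at 11.63 and 11.80 in inhibitor arrays and at 11.78 and 11.62 in DMSO arrays, a difference of 0.01 ± 0.29 (limma adjusted p = 0.989). IRAK4 lay near the detection limit, at 5.63 and 5.65 in inhibitor arrays and at 6.46 and 5.87 in DMSO arrays, a difference of -0.53 ± 0.23 (adjusted p = 0.223). The IRAK1 groups overlapped and the IRAK4 groups did not, but neither difference passed the threshold. A kinase inhibitor acts on the protein, so these levels say nothing of whether the enzymes were inhibited. Of 15 tested members of the IRAK pathway (receptors, adaptors, kinases and ligands), 1 fell, the ligand gene IL1B, described with the inflammatory genes. MYD88 gave -0.35 and IRAK2, another kinase of the family, gave -0.45, neither past the threshold.

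In all, 455 of the 10469 genes passed the threshold. Of these 276 were higher with the inhibitor (2.64% of the genes tested) and 179 were lower (1.71%). At an unadjusted p under 0.05, 10% were higher and 8.93% lower. The 4 array-to-array differences of each of the 455 had 1 sign, as had those of 30% (higher) and 30.4% (lower) of all genes tested. A change of at least 2-fold was seen for 82 genes that rose and 45 that fell, and a change of at least 4-fold for 5. Among the 9145 genes detected on all 4 arrays, which did not enter through 1 group alone, 355 passed (217 higher, 138 lower, 3.88%). The count was 80 without DMSO replicate 2, 127 without DMSO replicate 1, 125 without inhibitor replicate 1 and 102 without inhibitor replicate 2, which also alters the genes tested. It was 1688 (856 higher, 832 lower) with the spread of the 4 arrays alone and 1719 (864 higher, 855 lower) with that of the 8 inhibitor and DMSO arrays. Normalizing and fitting those 8 arrays by themselves gave 1698 (850 higher, 848 lower). Median scaling gave 138 calls (97 higher, 41 lower), and 37 with another background SD (34 higher, 3 lower).

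**Figure D1:**
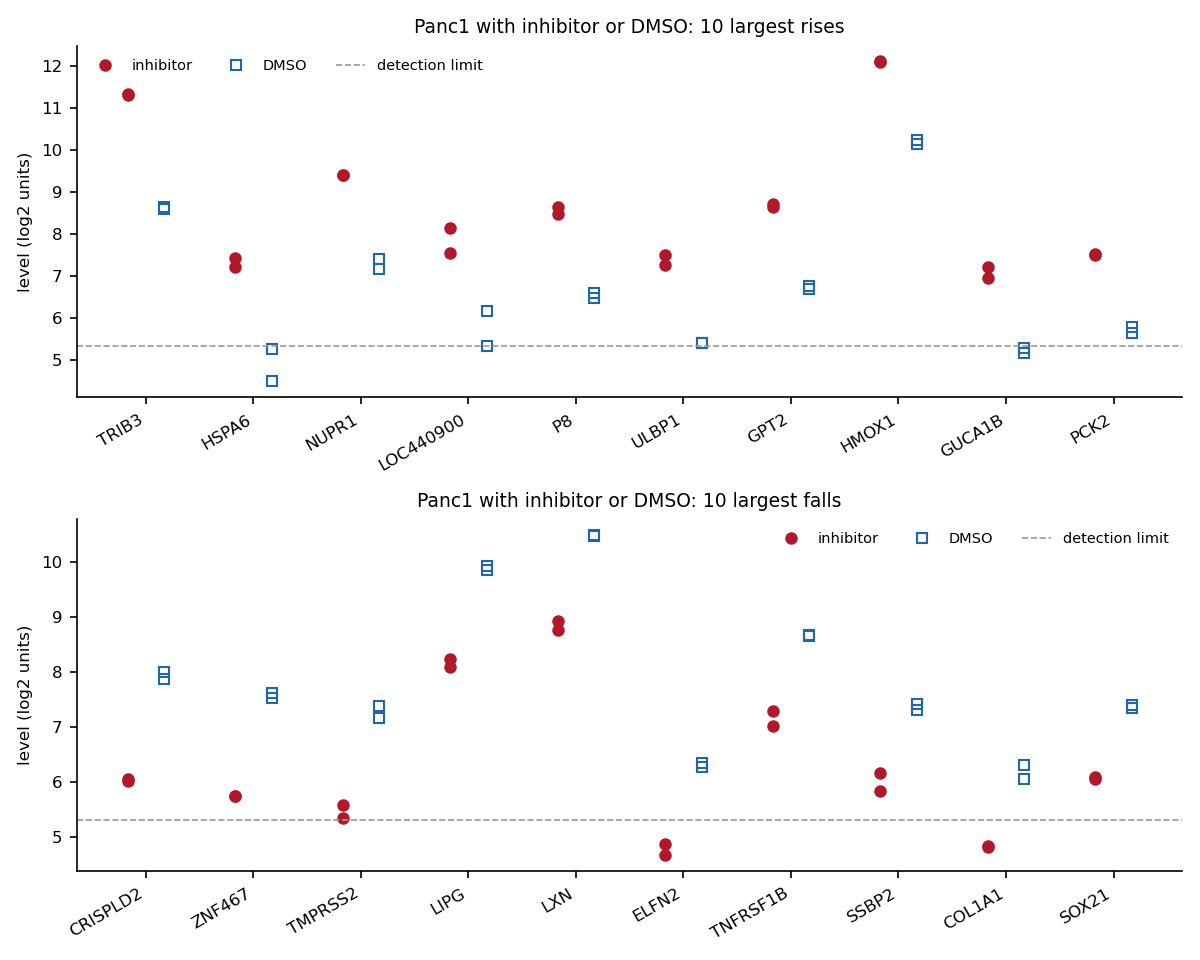
Level (log2 units) of the genes with the 10 largest rises (top) and the 10 largest falls (bottom) on each inhibitor array (filled circles) and each DMSO array (open squares) of Panc1, with the highest detection limit of the 4 arrays as a dashed line. All were picked from genes whose groups do not overlap, and TRIB3 lies at 11.32 and 11.31 with inhibitor and at 8.63 and 8.58 with DMSO.

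Genes of the ATF4 and CHOP stress response had the largest share of members that rose among the lists with at least 10 tested members. TRIB3, a pseudokinase induced through ATF4 and CHOP, had levels of 11.32 and 11.31 in inhibitor arrays and 8.63 and 8.58 in DMSO arrays. This rise of 2.71 ± 0.30 (6.54-fold, adjusted p = 0.000122) was the largest of all genes past the threshold. NUPR1, a stress-induced chromatin protein, had 9.40 and 9.41 with inhibitor and 7.16 and 7.39 with DMSO, a rise of 2.13 ± 0.34. The row P8, an older symbol shared by several genes with NUPR1 among them, gave 8.63 and 8.48 with inhibitor and 6.58 and 6.48 with DMSO, and may measure NUPR1 again. SESN2, a leucine-sensing inhibitor of mTORC1 signalling, rose by 1.79 ± 0.35, to 7.08 and 7.21 against 5.35 on both DMSO arrays.

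The rise extended to the regulators themselves. ATF4 mRNA stood at 11.21 and 11.49 with inhibitor and at 10.14 and 10.26 with DMSO (1.15 ± 0.18, adjusted p = 0.0015), and DDIT3 rose by 0.83 ± 0.20. PPP1R15A (GADD34), which restores translation by directing dephosphorylation of eIF2 alpha, rose by 1.495 ± 0.26, to 11.10 and 11.02 with inhibitor against 9.66 and 9.47 with DMSO. CBS and CTH, the enzymes that turn homocysteine into cysteine, rose by 1.58 ± 0.20 and 1.47 ± 0.27. CEBPG, a dimer partner of ATF4, rose by 1.40 ± 0.17, and GDF15, a secreted stress hormone, by 1.19 ± 0.23. ATF5, a transcription factor whose translation is raised in the same stress response, went the other way, with 9.99 and 9.90 in inhibitor arrays against 10.99 and 11.11 in DMSO arrays (-1.10 ± 0.24, adjusted p = 0.0141). In these members the groups lay apart by much more than the arrays of either group differed, which follows in part from naming genes past the threshold. ATF4, DDIT3, CTH, GDF15 and ATF5 are named after their values were seen.

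Of 23 tested members of this list, 13 rose and 1 fell, against 2.64% and 1.71% of all genes tested, and the median change of the members was 1.15, against -0.003 over all genes. Without 1 of the 4 arrays, 8 to 10 of them rose, the fewest without DMSO replicate 1. The other members with large differences were DDIT4 (REDD1), at 1.42 ± 0.43, and CEBPB, at 0.71 ± 0.23, neither past the threshold (adjusted p of 0.0697 and 0.0879).

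Enzymes that make non-essential amino acids rose in part. GPT2, the mitochondrial alanine aminotransferase, had 8.64 and 8.69 in inhibitor arrays and 6.76 and 6.68 in DMSO arrays, a rise of 1.95 ± 0.27 (adjusted p = 0.00071). ASNS, asparagine synthetase, had 11.55 and 11.51 with inhibitor and 9.98 and 10.01 with DMSO (1.53 ± 0.29). PHGDH, the first enzyme of serine synthesis, had 11.52 on both inhibitor arrays and 9.97 and 10.10 on the DMSO arrays (1.48 ± 0.28). Together with GOT1, the cytosolic aspartate aminotransferase (1.32 ± 0.15), and PYCR1, a proline synthesis enzyme (0.86 ± 0.21), these were the 5 of 14 tested members that rose, against 2.64% of all genes. GPT2 and GOT1 kept their call without any 1 of the 4 arrays, while ASNS, PHGDH and PYCR1 lost it without each of them in turn (adjusted p of 0.0551 to 0.158). At an unadjusted p under 0.05 limma gave 8 members higher and 0 lower, against 10% and 8.93% of all genes. PSPH and SHMT2, of the serine pathway, gave 0.44 and 0.69 without passing. PCK2, the mitochondrial form of phosphoenolpyruvate carboxykinase, was among the largest rises of all genes, with 7.50 and 7.51 in inhibitor arrays against 5.64 and 5.78 in DMSO arrays, of which 1 detected it (1.80 ± 0.36). BCAT1, the cytosolic branched-chain aminotransferase, rose by 1.33 ± 0.18.

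The promoters of some of these genes are shown because ATF4 with a C/EBP partner binds amino acid response elements, whose core was searched as TGATGNAA on both strands, where N is any base. Each window runs from 250 bases before to 50 bases after a RefSeq gene start (GRCh38.p14), is written 5′ to 3′ on the gene's strand, and has the match in capitals. The windows are ASNS at chr7:97872359-97872658 (minus strand), CEBPG at chr19:33373863-33374162 (plus), CHAC1 at chr15:40953221-40953520 (plus) and GOT1 at chr10:99430575-99430874 (minus). They are the 4 members of the stress and synthesis lists with the largest rises among those with a match.
ASNS: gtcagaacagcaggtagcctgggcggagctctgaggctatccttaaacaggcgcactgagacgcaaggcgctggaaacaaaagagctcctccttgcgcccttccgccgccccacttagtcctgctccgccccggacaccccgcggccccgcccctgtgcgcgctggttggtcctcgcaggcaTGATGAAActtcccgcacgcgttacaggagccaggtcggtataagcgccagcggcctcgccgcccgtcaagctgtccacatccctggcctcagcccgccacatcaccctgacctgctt
CEBPG: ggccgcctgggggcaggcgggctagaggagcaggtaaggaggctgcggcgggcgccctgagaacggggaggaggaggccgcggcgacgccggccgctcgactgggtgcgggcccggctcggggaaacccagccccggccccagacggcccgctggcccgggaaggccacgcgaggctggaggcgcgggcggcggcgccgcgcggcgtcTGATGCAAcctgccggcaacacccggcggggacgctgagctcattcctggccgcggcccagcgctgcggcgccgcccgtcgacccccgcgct
CHAC1: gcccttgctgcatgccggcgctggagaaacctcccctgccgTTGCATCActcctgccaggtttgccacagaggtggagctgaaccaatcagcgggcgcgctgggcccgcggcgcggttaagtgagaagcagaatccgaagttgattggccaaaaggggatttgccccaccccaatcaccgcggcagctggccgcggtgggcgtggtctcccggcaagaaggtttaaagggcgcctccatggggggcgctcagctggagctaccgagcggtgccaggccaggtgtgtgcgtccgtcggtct
GOT1: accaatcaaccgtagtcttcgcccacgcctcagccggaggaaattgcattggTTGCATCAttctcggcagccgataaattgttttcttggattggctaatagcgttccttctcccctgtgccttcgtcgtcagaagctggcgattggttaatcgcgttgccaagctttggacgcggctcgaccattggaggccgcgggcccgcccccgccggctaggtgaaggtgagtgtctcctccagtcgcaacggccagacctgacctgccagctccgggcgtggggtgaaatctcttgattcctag

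CHAC1, which breaks down glutathione, was detected on neither DMSO array. It had levels of 6.03 and 5.93 with inhibitor and 4.72 and 4.51 with DMSO, at least 1.63-fold higher with the inhibitor by the detection limit (limma adjusted p = 0.000298). Here and below, a p beside such a bound tests the fitted change, which uses values under the limit, and not the bound. The searched letters were held by a window of 4.46% of the 27305 genes with windows (3.62% of all 35116 windows). Windows were found for 22 members of the stress, synthesis, transporter and synthetase lists that rose past the threshold, and 12 of these genes had a window with a match. Of the 29 tested members that did not rise past the threshold and had a window, 4 had a match (JDP2, MTHFD1L, SLC3A2 and TARS1). TRIB3 and SESN2 had windows without a match, which says only that these letters are not there. A match is a description of the sequence, with no test attached.

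**Figure D2:**
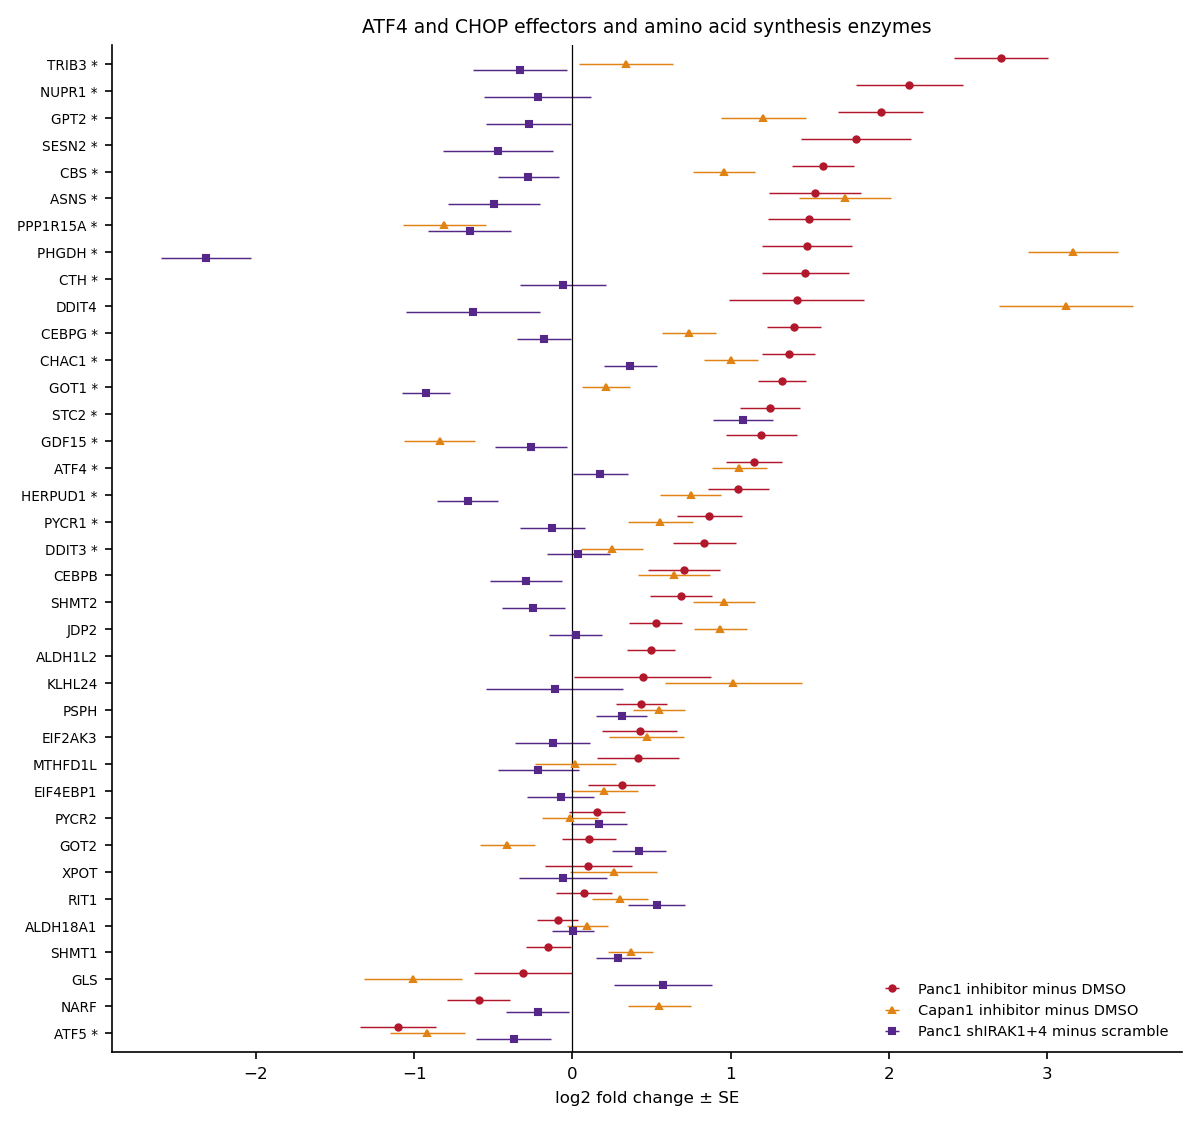
Log2 fold change ± SE (limma, 2 arrays a group) of the tested ATF4 and CHOP effectors and amino acid synthesis enzymes in Panc1 with inhibitor (circles), in Capan1 with inhibitor (triangles) and in Panc1 with shIRAK1+4 (squares), and an asterisk marks an adjusted p under 0.05 with the inhibitor in Panc1. Most circles lie right of 0, led by TRIB3 at 2.71, and ATF5 lies at -1.10.

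Amino acid transporters and the enzymes that charge transfer RNA rose alongside. SLC7A11, the cystine and glutamate exchanger, had 6.62 and 6.56 with inhibitor and 5.49 and 5.53 with DMSO (1.08 ± 0.19, adjusted p = 0.00386). SLC7A1, a carrier of cationic amino acids, rose by 1.19 ± 0.21, SLC38A1, a glutamine transporter, by 0.83 ± 0.16, and SLC1A5, a carrier of neutral amino acids, by 0.64 ± 0.15. SLC1A4, another neutral carrier, was detected in inhibitor arrays (6.04 and 6.23) and at background in DMSO arrays (4.71 and 4.86), at least 1.815-fold higher (adjusted p = 0.000579). These were 5 of 15 tested transporters, against 2.64% of all genes, and 2 to 4 rose with 1 array left out. At an unadjusted p under 0.05, 8 were higher and 1 lower, against 10% and 8.93% of all genes. SLC7A5, the light chain of the main leucine carrier, differed by 0.14 ± 0.25 and its partner SLC3A2 by 0.64 ± 0.18 (adjusted p of 0.823 and 0.0535).

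Of 14 tested cytosolic aminoacyl-tRNA synthetases 4 rose, against 2.64% of all genes. They were CARS (cysteine, 1.15 ± 0.15), AARS (alanine, 0.98 ± 0.16), YARS (tyrosine, 0.88 ± 0.17) and NARS (asparagine, 0.87 ± 0.22). CARS had 10.20 and 10.19 with inhibitor and 8.99 and 9.10 with DMSO. The other 10 lay between -0.19 (KARS) and 0.30 (EPRS and TARS).

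Targets of NRF2, the transcription factor of the oxidative stress response, rose for some members. HMOX1, heme oxygenase 1, had 12.10 on both inhibitor arrays and 10.23 and 10.13 on DMSO arrays, a rise of 1.92 ± 0.36 (adjusted p = 0.00587). OKL38 (now OSGIN1), an oxidative stress induced growth inhibitor, had 10.49 and 10.43 with inhibitor and 8.70 and 8.76 with DMSO (1.73 ± 0.18, adjusted p = 0.000122). Both lay far apart between the groups, as genes picked among the largest rises do. MAFG, a small MAF partner of NRF2, SRXN1, which reduces oxidised peroxiredoxins, and TXNRD1, thioredoxin reductase, rose by 0.86 ± 0.16, 0.78 ± 0.19 and 0.64 ± 0.13. With SLC7A11 these made 5 of 23 tested list members, against 2.64% of all genes (OKL38 is not among them). The list holds that gene through another row, named OSGIN1. Neither the inhibitor nor the DMSO group detected that row on both arrays, so it was not tested. The drug exporter ABCC1 fell (-0.71 ± 0.15), as did 1.71% of all genes. Both MAFG in DMSO arrays and ABCC1 in inhibitor arrays were detected on 1 of 2. The other 17 members lay between -0.22 (UGDH) and 0.59 (GCLM), and the list's median was 0.09. Without 1 of the 4 arrays 1 or 2 members rose.

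Inducible HSP70 genes rose as well. HSPA6, a chaperone that many cells make only under heat or protein-folding stress, had 7.198 and 7.42 in inhibitor arrays and 5.26 and 4.48 in DMSO arrays, of which 1 detected it (2.44 ± 0.25, adjusted p = 0.000122). HSPA1A had 10.65 and 10.88 with inhibitor and 9.21 and 9.23 with DMSO (1.55 ± 0.17), and HSPA1B had 11.70 and 11.85 with inhibitor and 10.41 and 10.33 with DMSO (1.40 ± 0.22). HSPA1A and HSPA1B are near-identical copies, so their probes may not tell them apart, and HSPA6 is a row of several probes. The other 21 tested chaperones did not pass. DNAJB1, BAG3, HSP90AA1 and HSPD1, which heat shock also induces, lay between 0.15 and 0.23, and HSPB1 was at -0.25. HSPB8 (0.50), HSPH1 (0.48) and STIP1 (0.43) lay higher, and SERPINH1 was at -0.39. Of the 24 tested members, 16 had inhibitor arrays wholly above DMSO arrays and 3 wholly below, against 30% and 30.4% of all genes. At an unadjusted p under 0.05 limma gave 6 members of the list higher and 1 lower, against 10% and 8.93% of all genes. All 3 HSP70 rises remained without any 1 of the 4 arrays.

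The promoters of HSPA6 at chr1:161524290-161524589 (plus strand) and HSPA1A at chr6:31815293-31815592 (plus) are shown because these genes rose together. The capitals mark the core of the heat shock element, searched as GAANNTTC, which reads alike on both strands. They were chosen after their values were seen.
HSPA6: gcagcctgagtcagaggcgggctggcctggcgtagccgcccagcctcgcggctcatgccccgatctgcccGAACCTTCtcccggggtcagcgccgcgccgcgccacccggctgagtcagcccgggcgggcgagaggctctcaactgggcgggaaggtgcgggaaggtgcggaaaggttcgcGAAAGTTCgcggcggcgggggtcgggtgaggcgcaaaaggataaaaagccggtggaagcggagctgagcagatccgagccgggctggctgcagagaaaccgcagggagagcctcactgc
HSPA1A: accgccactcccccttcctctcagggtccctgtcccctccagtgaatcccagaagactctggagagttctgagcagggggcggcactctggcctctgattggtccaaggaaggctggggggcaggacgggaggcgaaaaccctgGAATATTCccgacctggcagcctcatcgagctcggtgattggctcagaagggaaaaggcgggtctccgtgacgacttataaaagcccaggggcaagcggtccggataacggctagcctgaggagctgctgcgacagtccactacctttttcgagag

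This core was held by a window of 8.21% of the 27305 genes with windows (6.77% of all 35116 windows). It was present in all 3 HSP70 genes that rose, and in 13 of the 22 tested chaperones with a window, so most chaperones with the core did not rise past the threshold. The list of endoplasmic reticulum chaperones and unfolded protein response genes gave 2 rises among 22 tested members, against 2.64% of all genes. They were HERPUD1 (1.05 ± 0.19), which is also a member of the ATF4 list, and XBP1, a transcription factor of the unfolded protein response (0.85 ± 0.14). HSPA5 (BiP), the main chaperone there, gave 0.41, HYOU1 0.41, DNAJB9 0.20, HSP90B1 -0.03 and CALR -0.12, and none of these passed.

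Signalling genes of the immediate early class rose in 3 of 19 tested members, against 2.64% of all genes. EGR1, a zinc finger transcription factor induced by growth factors and stress, had 7.79 and 7.74 in inhibitor arrays and 5.97 and 6.33 in DMSO arrays (1.61 ± 0.37, adjusted p = 0.0197). DUSP1, a phosphatase that turns off MAP kinases, rose by 0.94 ± 0.14, and FOSB, an AP-1 subunit that 1 DMSO array detected, by 0.96 ± 0.26. From the list of MAPK output, where 1 of 14 tested members passed, DUSP5, a nuclear ERK phosphatase, had 10.45 and 10.40 with inhibitor and 9.15 and 9.13 with DMSO (1.29 ± 0.24). Of the 3 immediate early genes that rose, only DUSP1 kept its call without any 1 of the 4 arrays. JUN (0.55), MYC (0.64), KLF6 (0.45) and FOSL1 (0.55) were higher in the mean, JUNB (-0.44) and KLF10 (-0.35) were lower, and none of these passed. Of the 19 immediate early members 14 were higher in the mean and 5 lower.

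Further large rises belonged to no list or to lists in which few members passed. HRK, a pro-apoptotic BH3-only protein, was the member of the BCL2 family list that passed, detected in inhibitor arrays (6.85 and 6.5004) and not in DMSO arrays (4.79 and 5.12), at least 2.64-fold higher (adjusted p = 0.00631). PMAIP1 (NOXA), another BH3-only gene, gave 1.00 without passing, and the other 12 tested members lay between -0.73 (BAK1) and 0.48 (BCL2L1). ULBP1, a stress ligand of the NKG2D receptor on natural killer cells, had 7.25 and 7.50 with inhibitor against 5.38 and 5.40 with DMSO (1.98 ± 0.33). CCND2, cyclin D2, had 6.42 and 6.56 against 5.08 and 4.70 (1.60 ± 0.24), with 1 DMSO array detecting it, whereas CCND1 differed by 0.12. MT1F, a metallothionein, rose by 1.62 ± 0.41, ATP6V1E2, a subunit of the vacuolar proton pump, by 1.70 ± 0.24, and UPP1, uridine phosphorylase, by 1.13 ± 0.26. GUCA1B, known as an activator of guanylate cyclase in the retina, rose by 1.87 ± 0.21 with detection on 1 DMSO array, and LOC440900, for which no name was found, by 2.09 ± 0.30.

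The inflammatory genes that IRAK signalling serves were lower in the mean with the inhibitor, and few of them passed. IL1B, the ligand interleukin-1 beta, was not detected in inhibitor arrays (4.42 and 4.45) and was detected in DMSO arrays (5.50 and 5.62), at least 1.23-fold lower with the inhibitor (adjusted p = 0.00114). TNFRSF1B, the second TNF receptor, had 7.30 and 7.03 with inhibitor and 8.65 and 8.68 with DMSO (-1.5004 ± 0.41, adjusted p = 0.0452). CD83, an activation marker of dendritic cells, had 7.44 and 7.33 with inhibitor and 8.46 and 8.39 with DMSO (-1.04 ± 0.28). TNFRSF21 (death receptor 6), of the TNF receptor family, fell by 0.77 ± 0.15 and is outside this list. BCL3, a nuclear IkB protein, fell by 0.93 ± 0.25, and UBD, which encodes the ubiquitin-like modifier FAT10, was at least 1.27-fold lower (adjusted p = 0.0398). PTGS2, cyclooxygenase 2, is a target of the same factor and was detected on both inhibitor arrays (6.01 and 6.39) and on neither DMSO array (4.99 and 5.23). It passed as higher (adjusted p = 0.0437), but its row has several probes and no size of change or bound is given.

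The list as a whole had 5 falls and 1 rise among 33 tested members, against 1.71% and 2.64% of all genes, with a median change of -0.72. The inhibitor arrays lay wholly below the DMSO arrays for 28 members, a pattern seen in 30.4% of all genes tested (30% lay wholly above). The chemokines had lower levels without passing. CXCL1 lay at 9.89 and 9.50 with inhibitor and at 10.47 and 10.84 with DMSO, and CCL2 at 12.93 and 12.96 with inhibitor and at 14.13 on both DMSO arrays. Their changes of -0.96 ± 0.57 and -1.19 ± 0.38 did not pass (adjusted p of 0.397 and 0.0825). IL8 (now CXCL8) overlapped between the groups, at 10.91 and 10.63 with inhibitor and 10.97 and 10.90 with DMSO (-0.17 ± 0.49). The feedback inhibitors TNFAIP3 (A20) and NFKBIA gave -1.19 ± 0.39 and -0.72 ± 0.26, neither past the threshold. With the spread of the 4 arrays alone, 23 members fell and 2 rose. With any 1 of the 4 arrays left out, 1 member fell. When only genes detected on all 4 arrays were tested, limma called none of 24 members, against 12 lower and 2 higher at an unadjusted p under 0.05 among the 33 (8.93% and 10% of all genes). CXCL1, CCL2, IL8, TNFAIP3 and NFKBIA are named after their values were seen.

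**Figure D3:**
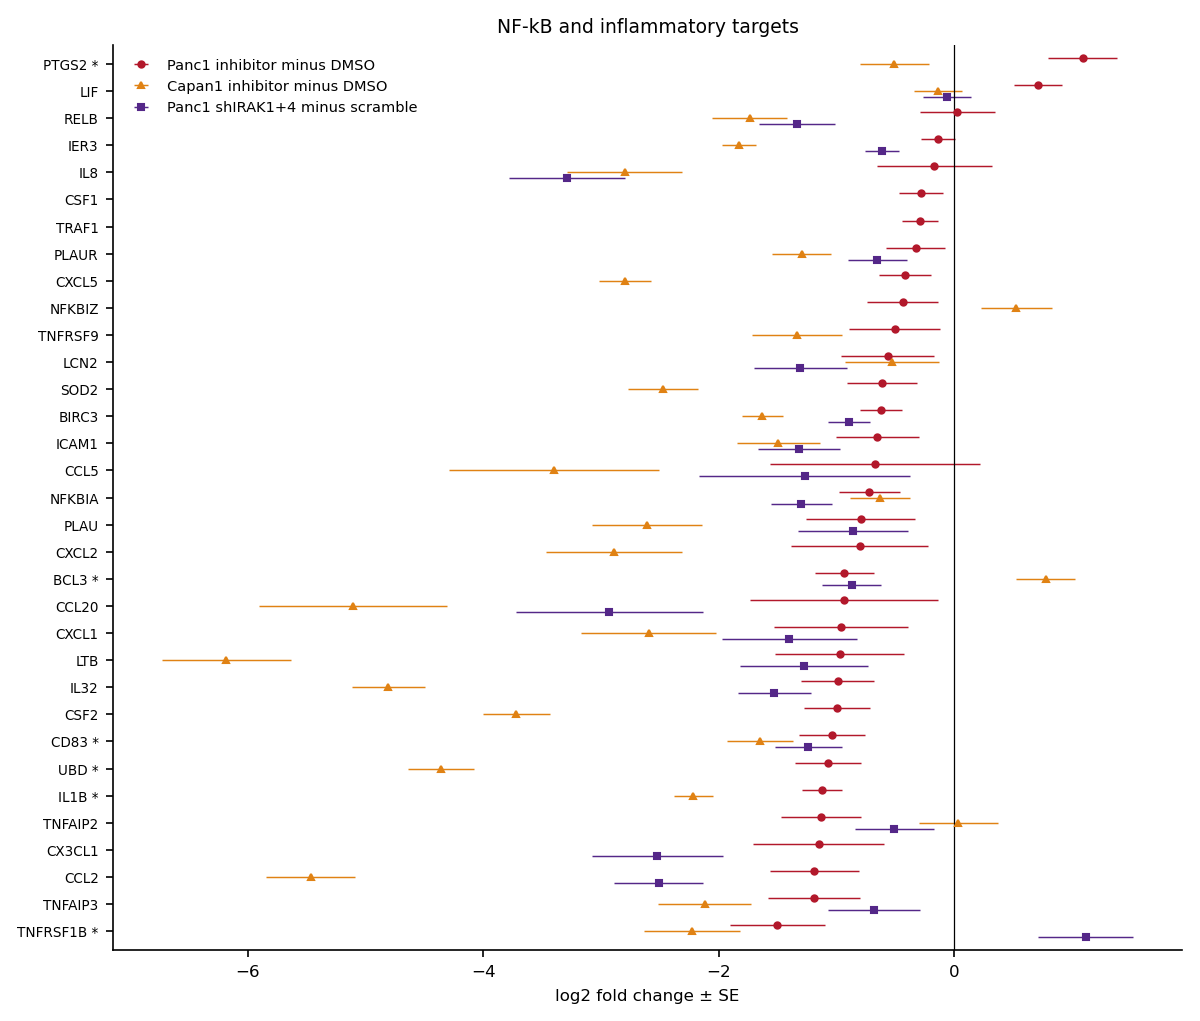
Log2 fold change ± SE (limma, 2 arrays a group) of the 33 tested NF-kB and inflammatory targets in Panc1 with inhibitor (circles), in Capan1 with inhibitor (triangles) and in Panc1 with shIRAK1+4 (squares), and an asterisk marks an adjusted p under 0.05 with the inhibitor in Panc1. Most circles lie left of 0 by about 1 log2 unit or less (TNFRSF1B at -1.5004, CCL2 at -1.19), and the point of PTGS2, right of 0, is drawn as fitted although neither DMSO array detected the gene.

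The largest falls were spread over secreted, surface and regulatory genes. CRISPLD2, a secreted protein that binds lipopolysaccharide, had 6.03 and 6.07 in inhibitor arrays and 8.01 and 7.88 in DMSO arrays, a fall of 1.90 ± 0.31 on the log2 scale (adjusted p = 0.00242). LIPG, endothelial lipase, had 8.10 and 8.25 with inhibitor and 9.94 and 9.87 with DMSO (-1.73 ± 0.33). TMPRSS2, a membrane serine protease, had 5.35 and 5.58 with inhibitor and 7.17 and 7.40 with DMSO (-1.82 ± 0.42). The zinc finger gene ZNF467 fell to 5.76 and 5.75 against 7.62 and 7.53 with DMSO, and LXN, a carboxypeptidase inhibitor, to 8.93 and 8.78 against 10.49 and 10.48. ELFN2 was not detected with inhibitor (4.68 and 4.87) and lay at 6.28 and 6.35 with DMSO, at least 2.08-fold lower (adjusted p = 0.00301). Further falls were those of EDN1, the endothelin precursor (-1.30 ± 0.29), SOX21, a transcription factor (-1.31 ± 0.34), and SSBP2 (-1.36 ± 0.22). IRS1, an adaptor of insulin receptor signalling (-1.22 ± 0.20), SLC2A8, a glucose transporter (-1.22 ± 0.26), and CADM1, a cell adhesion molecule (-1.27 ± 0.27), fell as well. Of the 15 largest falls CRISPLD2, ELFN2 and IRS1 kept their call without any 1 of the 4 arrays.

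Epithelial and matrix genes were lower in the mean. KRT19, a keratin of duct epithelium, had 11.05 and 11.07 with inhibitor and 12.24 and 12.28 with DMSO (-1.21 ± 0.19, adjusted p = 0.00227). JUP, plakoglobin of desmosomes and adherens junctions, had 6.87 and 6.92 with inhibitor and 7.90 and 8.04 with DMSO (-1.07 ± 0.20). These were the 2 of 26 tested junction and keratin genes that fell, against 1.71% of all genes, with a list median of -0.37. At an unadjusted p under 0.05, 9 were lower and 1 higher, against 8.93% and 10% of all genes. The summed linear level of the 12 epithelial markers was 4356 and 4780 in inhibitor arrays and 8062 and 8133 in DMSO arrays, and its part in other changes was not tested. Within it KRT19 and KRT8 had the highest levels, and KRT8 lay at 10.52 and 10.86 with inhibitor and at 11.12 and 11.08 with DMSO. EPCAM lay at 6.56 and 6.64 with inhibitor and at 6.69 and 6.67 with DMSO, and KRT18 overlapped between the groups. In cells measured in bulk, fewer cells of a type and less RNA per cell cannot be told apart. CDH1, E-cadherin, was not detected in inhibitor arrays (4.70 and 4.97) and was detected in DMSO arrays (5.93 and 6.08), without passing (adjusted p = 0.348). Of 14 tested collagen and matrix genes 2 fell, against 1.71% of all genes, with a list median of -0.40. At an unadjusted p under 0.05 limma gave 0 of them higher and 7 lower, against 10% and 8.93% of all genes. COL1A1 was at least 1.91-fold lower (adjusted p = 0.00386), with no detection in inhibitor arrays, and COL5A2 fell by 0.77 ± 0.18. TGFB3, a ligand of the TGF-beta family, passed as lower (adjusted p = 0.00287), at 5.45 and 4.89 with inhibitor, of which 1 was detected, and 6.41 and 6.52 with DMSO. ID3, an inhibitor of basic helix-loop-helix factors, fell by 0.76 ± 0.17, whereas the YAP targets CTGF (now CCN2) and ANKRD1 gave 1.38 ± 0.43 and 1.39 ± 0.43 without passing. Mesenchymal genes gave 0 calls among 12 tested members in limma, with 1 higher and 1 lower at an unadjusted p under 0.05, and VIM differed by 0.03.

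Growth and metabolic lists are set beside all genes tested, of which 2.64% were called higher and 1.71% lower (4.35% in all). At an unadjusted p under 0.05 in limma, 10% of all genes were higher and 8.93% lower. The share called was 4.76% in the DNA replication list, 10% in the p53 list and 9.09% in the gemcitabine list. Among 36 tested mitosis genes limma called 0, with 2 higher and 1 lower at an unadjusted p under 0.05 and a median change of 0.06. CENPF had the largest difference (0.61 ± 0.23, adjusted p = 0.145). In the DNA replication list, with 42 tested genes, CCND2 rose and POLA2, a subunit of DNA polymerase alpha, fell by 0.82 ± 0.16. Cholesterol synthesis had 0 calls among 23 tested members (0 higher and 2 lower at an unadjusted p under 0.05), hypoxia and glycolysis 0 among 25 (3 and 3) and the nuclear-encoded respiratory chain 0 among 32 (0 and 1). Inhibitor arrays lay wholly below DMSO arrays for 12 of the 25 hypoxia genes and 13 of the 32 respiratory genes, against 30.4% of all genes. The type I interferon list had 0 calls among 32 members (1 and 4), although the inhibitor arrays lay wholly below the DMSO arrays for 23 of them, against 30.4% of all genes. IFIT2 gave 1.30 ± 0.71 and the immunoproteasome subunit PSMB9 gave -1.13 ± 0.42. Housekeeping genes gave 0 calls among 14 (0 and 0), with a median of 0.02. In the p53 target list SESN2 rose and TP53I3 fell (-0.63 ± 0.15) among 20 tested members. Single members rose in the lists of autophagy (MAP1LC3B, 0.81 ± 0.20), ribosomal proteins (RPL13, 0.57 ± 0.14) and gemcitabine uptake (SLC29A2, 0.57 ± 0.14). With the spread of the 4 arrays alone limma called 5 interferon genes higher and 8 lower, and 1 mitosis gene higher and 1 lower.

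**Figure D4:**
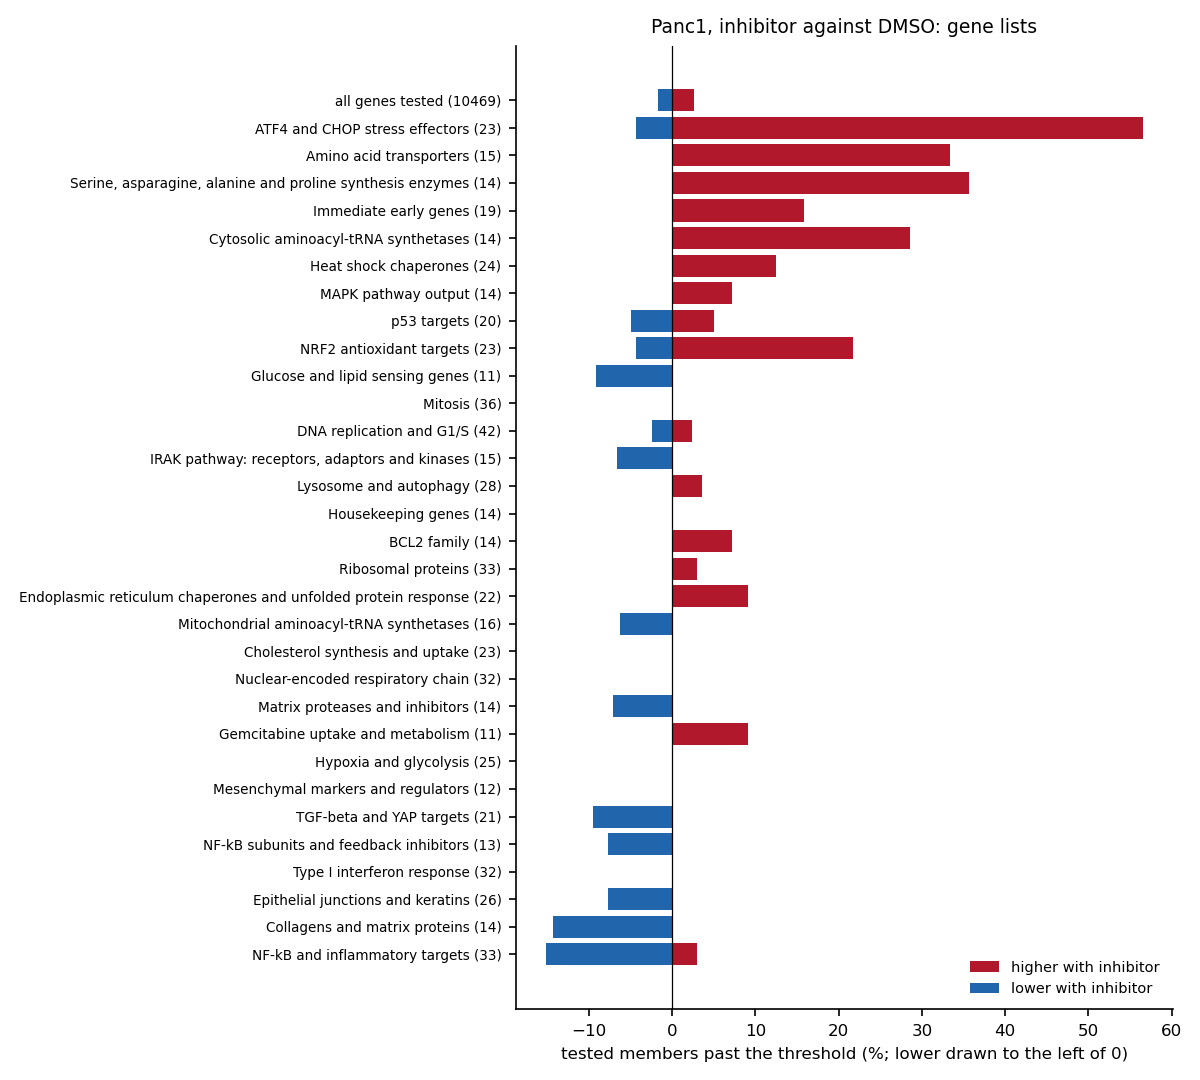
Percent of the tested members of each gene list with at least 10 tested members (number in parentheses) that passed an adjusted p of 0.05 in Panc1, drawn to the right where higher with the inhibitor and to the left where lower, in order of the list's median change, with all genes tested at the top. The ATF4 and CHOP list reaches farthest right with 13 of 23 members, and the NF-kB list farthest left with 5 of 33.

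The inhibitor was then set beside knockdown of both kinases in the same line, which shares no array with it. IRAK1 averaged 8.53 in shIRAK1+4 arrays and 11.42 in scramble arrays (-2.89 ± 0.29, limma adjusted p = 8.84e-06), and IRAK4 averaged under the detection limit in both, at 4.37 and 4.89. With shIRAK1+4 against scramble, 1279 of 10369 genes passed (12.3%). Across the 9627 genes tested in both comparisons the changes had a Pearson r of -0.108 and a Spearman rho of -0.102, given as a description, since genes are not independent replicates and each comparison has its own pair of control arrays. In all, 90 genes passed in both, which is 22.1% of the 408 inhibitor calls and 7.79% of the 1156 knockdown calls among these genes. Of the 90, 66 had opposite signs: 34 were higher with the inhibitor and lower with the knockdown, and 32 were lower with the inhibitor and higher with the knockdown. The other 24 shared a sign, 14 higher and 10 lower.

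The difference of the effects, inhibitor minus knockdown, passed for 1211 of 11211 genes (10.8%). EGR1 had the most positive difference among genes called with the inhibitor (4.91 ± 0.52, adjusted p = 3.27e-05), with 1.61 for the inhibitor and -3.30 for the knockdown. BCAT1 followed (4.75 ± 0.25, as fitted), with 1.33 and -3.42 and detection on 1 of 2 shIRAK1+4 arrays, then PHGDH (3.80 ± 0.40), with 1.48 and -2.32, and HMOX1 (3.74 ± 0.51), with 1.92 and -1.83. Scramble arrays lay at other levels than DMSO arrays for many of these genes, as for EGR1, PHGDH, BCAT1, LIPG and COL5A2. EGR1 averaged 7.01 in shIRAK1+4 arrays and 10.315 in scramble arrays, whereas the inhibitor and DMSO arrays lay between 5.97 and 7.79. PHGDH averaged 10.28 in shIRAK1+4 arrays and 12.60 in scramble arrays, against 10.04 in DMSO arrays. BCAT1 averaged 5.23 in shIRAK1+4 arrays and 8.65 in scramble arrays, against 5.45 in DMSO arrays. Scramble cells had been infected and selected, a step not given for DMSO cells, and the part of these baselines in the opposite signs was not tested.

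Among the most negative differences were those of ZNF467 (-3.51 ± 0.54) and SOX21 (-3.42 ± 0.48), lower with the inhibitor and higher with the knockdown. COL5A2 and LIPG also passed with negative differences (adjusted p of 2.17e-09 and 7.56e-05), whose size is not given because scramble arrays did not measure them fully. COL5A2 averaged 9.17 in shIRAK1+4 arrays and 4.93 in scramble arrays, neither of which detected it, against 7.94 on both inhibitor arrays and 8.78 and 8.64 on the DMSO arrays. LIPG averaged 7.55 in shIRAK1+4 arrays and 5.19 in scramble arrays, of which 1 detected it. LXN and DHRS3, a retinal reductase, also moved in opposite ways. Shared falls were led by EDN1 (-1.30 with the inhibitor, -1.40 with the knockdown), BMP5 (-1.06 and -1.06), CD83 (-1.04 and -1.24), BCL3 (-0.93 and -0.87) and BAMBI, a decoy receptor of the TGF-beta family (-0.93 and -0.77). Shared rises were led by STC2, a stress-induced glycoprotein hormone (1.25 and 1.08), GUCA1B (1.87 and 0.91), TMEM187 (0.96 and 0.77), TMEM86B (1.03 and 0.72) and RTN4R, the receptor of Nogo (0.72 and 0.89). GUCA1B averaged 4.89 in scramble arrays, whose detection began at 5.47 and 5.39, so its 0.91 is as fitted.

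Several stress genes lay higher in scramble than in DMSO arrays, a gap whose part in the knockdown values was not tested. TRIB3 averaged 10.43 in shIRAK1+4 arrays and 10.76 in scramble arrays, against 8.61 in DMSO arrays, ASNS 11.16 and 11.66 against 9.99, and CBS 10.25 and 10.53 against 8.62. The ATF4 and CHOP list had 1 rise and 1 fall among 23 tested members with shIRAK1+4 (median change -0.18), against 13 and 1 with the inhibitor (median 1.15). For TRIB3 the difference of the effects was 3.04 (adjusted p = 0.000282), with -0.33 ± 0.30 for the knockdown. For GOT1 it was 2.25 (adjusted p = 1.33e-05) and for SLC7A11 2.24 as fitted (adjusted p = 0.000118), both lower with the knockdown. SLC7A11 averaged 4.66 in shIRAK1+4 arrays, under their detection limits of 5.22 and 5.18, so the size of its difference is uncertain. With shIRAK1+4, 552 of all 10369 genes fell, and the NF-kB targets had 14 falls among 23 tested members (median -1.275). Of these IL8 differed between the treatments (-0.17 with the inhibitor, -3.29 with the knockdown, difference 3.12, adjusted p = 0.00935), whereas the difference for CCL2 (-1.19 and -2.51) did not pass (adjusted p = 0.123). Junction and keratin genes had 13 rises among 24 members with shIRAK1+4, against 727 among all 10369 genes. KRT19 (-1.21 and 0.80) and JUP (-1.07 and 0.88) passed the test of the difference, at -2.01 (adjusted p = 0.000273) and -1.95 (adjusted p = 0.000409).

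**Figure D5:**
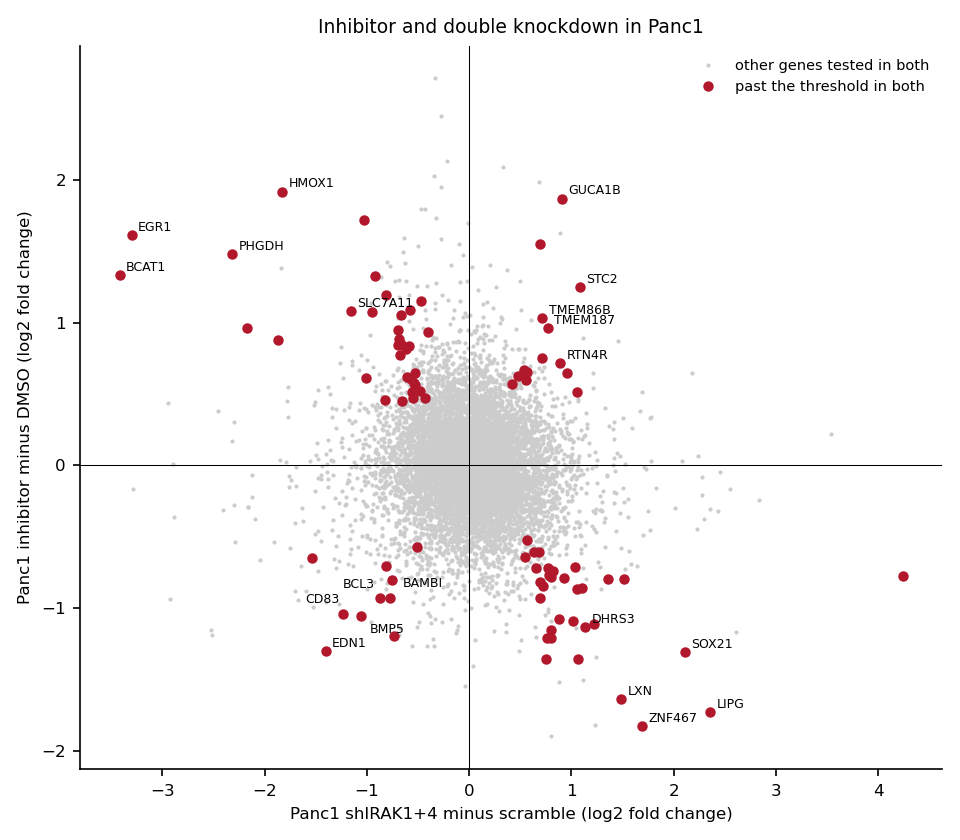
Log2 fold change of Panc1 inhibitor against DMSO (vertical) and of Panc1 shIRAK1+4 against scramble (horizontal) for the 9627 genes tested in both, with the 90 genes past the threshold in both as red circles and the 5 leading genes of each combination of signs labelled, 20 in all. The upper left and lower right parts hold 66 of the 90 red circles, among them EGR1, BCAT1 and PHGDH at the upper left and LIPG and ZNF467 at the lower right.

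Capan1 arrays with the same inhibitor label, dose and time gave 3349 calls against Capan1 DMSO among 10871 genes (30.8%). Across the 9172 genes tested in both lines the changes had a Pearson r of 0.165 and a Spearman rho of 0.133, as a description. There were 186 genes called in both, 51.5% of the 361 Panc1 calls and 6.96% of the 2671 Capan1 calls. Of these 99 were higher and 46 lower in both lines, and 41 had opposite signs. The effects differed between the lines, Panc1 minus Capan1, for 1642 of 12168 genes (13.5%). Among genes that rose in both lines were ASNS by 1.53 ± 0.29 in Panc1 and 1.72 ± 0.29 in Capan1 (difference -0.19 ± 0.41, adjusted p = 0.799), CARS by 1.15 and 1.18, and ULBP1 by 1.98 and 2.04. TRIB3 differed, at 2.71 in Panc1 and 0.34 ± 0.30 in Capan1 (difference 2.37 ± 0.42, adjusted p = 0.00153). PPP1R15A rose in Panc1 (1.495) and fell in Capan1 (-0.81), a difference of 2.30 ± 0.37 (adjusted p = 0.00075). The NF-kB and inflammatory list had 29 falls and 2 rises among 39 tested members in Capan1 (median -1.736). Of all 10871 genes tested there, 1675 fell and 1674 rose. In Panc1 the list had 5 falls and 1 rise among 33 (median -0.72). Whether the effect differed between the lines varied from gene to gene. CCL2 gave -1.19 in Panc1 and -5.47 in Capan1 (difference 4.28 ± 0.53, adjusted p = 8.4e-05), and IL32 gave -0.99 and -4.80 (difference 3.82 ± 0.44). The differences of TNFRSF1B and CD83 did not pass (adjusted p of 0.437 and 0.334), and BCL3 gave -0.93 in Panc1 and 0.78 in Capan1 (difference -1.71 ± 0.36, adjusted p = 0.00476).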

How the data were processed

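RNA from 24 cell line samples (12 groups of 2) was hybridised as biotin-labelled cRNA, per the labels. The authors deposited a log2 signal and a detection p-value for each of 34595 gene rows, made with GenomeStudio 2011 per the submitters' processing notes. The steps of the detection p-value fit 770 negative controls. It follows that 27191 rows behave as 1 probe and 7404 as several, and bounds ("at least N-fold") are given only for rows of 1 probe. A separate value table of log2 values deposited by the authors, whose columns look quantile-normalized, served as an alternative, and its scale and centring are not stated in the sources used here. No column went unused for want of a sample (0 columns).

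The deposited log2 signals were returned to the linear scale, corrected with the normexp model and an offset of 16, quantile-normalized over the 24 arrays and set back to log2. The background mean was the signal at a detection p of 0.5, and its SD the distance to the point 1 SD above it. This SD was chosen after the background estimates were seen, and limma's own estimate is an added alternative. The 12 group means were fitted with limma 3.58.1 in R 4.3.3 to 13361 genes (12 residual degrees of freedom). Tested were genes that every array of some compared group detected (p below 0.01), with Benjamini-Hochberg adjustment and a threshold of 0.05. The labels and files give no chip position or scan date, so no batch was fitted.

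Symbols are those of the files: 17761 are current, 3306 match 1 gene by an older symbol, 150 match several and 13378 match none. Promoter windows come from RefSeq (GRCh38.p14).

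The genes and lists (34) were chosen with earlier results of these data known. Named by rule were IRAK1, IRAK4, the 15 largest rises and falls past the threshold with 4 differences of 1 sign, the 5 largest called members of each list (2, as values, where none passed), the 4 most positive and 4 most negative differences of effects among called genes, the 5 leading genes of each combination of signs with shIRAK1+4, and promoters of up to 4 stress and synthesis genes. Other members were named after their values were seen. Replicate numbers did not pair the Panc1 inhibitor and DMSO arrays: deviations of same-numbered arrays from their group means correlated at 0.036. The correlation was 0.317 for Panc1 inhibitor with Capan1 inhibitor arrays. It was 0.175 for Capan1 inhibitor with Capan1 DMSO arrays and 0.129 for Panc1 shIRAK1+4 with Panc1 scramble arrays. Scripts were tested on simulated data. Alternatives changed the background, scaling, filter, arrays in the fit, spread and fold threshold.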

Additional observations from a re-analysis of the deposited data

Results flagged for a closer look

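The effect of the inhibitor differed between the lines, Panc1 minus Capan1, by limma's interaction contrast for the 8 genes below, the 4 most negative and 4 most positive among those called in Panc1. CRISPLD2 gave -1.90 in Panc1 and 3.64 in Capan1, a difference of -5.54 ± 0.43 (adjusted p = 1.71e-06). SSBP2 gave -1.36 and 2.30, a difference of -3.66 ± 0.32 (adjusted p = 3.69e-06). ZNF467 differed by -3.36 ± 0.54 (-1.82 and 1.54, adjusted p = 0.000772), and PLCH2, a phospholipase C, by -3.05 ± 0.32 (-0.88 and 2.17, adjusted p = 2.96e-05). The values are as fitted: neither Capan1 DMSO array detected SSBP2, ZNF467 or PLCH2, so the size of those differences is uncertain. These 4 genes were lower with the inhibitor in Panc1 and higher in Capan1. The differences of ZNF467 and PLCH2 were lost when the background was estimated from all rows (adjusted p of 0.122 and 0.394).

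HSPA6 differed by 2.54 ± 0.35 (adjusted p = 0.000205), with a rise of 2.44 in Panc1. No Capan1 array detected it, so the difference restates the Panc1 rise and says nothing of Capan1. EGR1 differed by 2.65 ± 0.52 (adjusted p = 0.0031), with 1.61 in Panc1 and -1.04 in Capan1, and lost its call under median scaling with the other background SD (adjusted p = 0.131). UPP1 differed by 2.94 ± 0.36 (adjusted p = 7.54e-05), with 1.13 in Panc1 and -1.81 as fitted in Capan1, where neither inhibitor array detected it. UBD differed by 3.29 ± 0.40 (adjusted p = 6.64e-05), with -4.36 in Capan1. In Panc1 it was near the detection limit in DMSO arrays (5.63 and 5.58) and not detected with inhibitor, so its fall there could not be measured beyond that limit and the difference is not a comparison of sizes. CRISPLD2, whose 4 groups all detected it, passed under all 23 alternatives. SSBP2 and UBD passed under the 22, and HSPA6 and UPP1 under the 21, that they entered. The filter for detection on all compared arrays left out SSBP2, UBD, HSPA6 and UPP1, so it could not check them. The filter for rows of 1 probe left out HSPA6 and UPP1. No explanation was tested.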

How the results depend on the processing

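The count of 455 genes for inhibitor against DMSO moved by over 1.5 times under these alternatives: 138 with median scaling (97 higher, 41 lower, 70.3% higher against 60.7%), 1698 with the 8 inhibitor and DMSO arrays normalized and fitted alone (850 higher, 848 lower), 882 with the background from all rows, 1719 with the spread of the inhibitor and DMSO arrays of both lines (864 higher, 855 lower), 2022 with array weights (1051 higher, 971 lower) and 6 with a test against a 1.5-fold change. Alternatives chosen after seeing the data gave 707 with the background SD from all controls, 37 with that SD and median scaling (34 higher, 3 lower) and 1688 with the spread of the 4 compared arrays (856 higher, 832 lower). Leaving out 1 replicate gave 80 to 127. The Panc1 minus Capan1 count of 1642 became 734 with median scaling, 3752 with the 8 arrays normalized and fitted alone and also with the spread of those arrays, 899 with genes detected on all compared arrays, 4009 with array weights, 241 with the 1.5-fold test, 286 with the other background SD and median scaling (108 higher, 178 lower) and 858 to 1095 without 1 replicate. The inhibitor minus shIRAK1+4 count of 1211 became 485 with median scaling (139 higher, 346 lower, with a median over all genes of -0.172), 3024 with array weights, 122 with the 1.5-fold test, 89 with the other background SD and median scaling, and 580 to 707 without 1 replicate. Adding the replicate number to the fit as a block gave 528, 1751 and 1318 calls for the 3 comparisons. Of 2088 values of the 101 named genes under alternatives, 1586 kept their side of the threshold, 439 lost and 63 gained a call, and 0 changed sign while called. Of the 83 named genes past the threshold, 25 kept their call without any 1 of the 4 arrays, 41 lost it in all 4 such fits and 17 in some. TRIB3, OKL38, HSPA1A and HS.558072 passed under all 21 alternatives. HSPA6 and GUCA1B passed under the 19 that they entered. The filters for detection on all 4 arrays and for rows of 1 probe left them out. The cause of these shifts was not tested. With 2 arrays a group and a detection limit of 5.24 to 5.31, genes near background give only bounds.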
